A study of Homo sapiens with 26 samples.

Results

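Collagens are the proteins of the extracellular matrix that give connective tissue its tensile strength, and their genes were examined here in peak lists of chromatin-bound transcription factors. The members were the autosomal protein-coding genes of GENCODE 44 lifted to hg19 whose symbol is COL, a number, A and a number, a rule that uses no measured value. Of 19229 autosomal protein-coding genes, 42 met this rule. A peak was counted for a gene when it overlapped the gene body or the 20 kb on either side, a stretch called the window below. Windows of neighbouring members overlap, and the 42 windows together cover 7.68 Mb in 37 stretches.

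Binding was measured by chromatin immunoprecipitation and sequencing in BJ, an established fibroblast line from human foreskin. Each of 5 proteins carried a HALO tag, was expressed ectopically for 48 h and was precipitated with an antibody to the tag. They were FOXA1, a forkhead factor called a pioneer factor in the title of the series, its variants labelled FOXA1dbd, FOXA1nhaa and FOXA1rraa, and HNF4A, a nuclear receptor. For each protein the labels name 2 ChIP libraries and 2 inputs, and 1 full peak list was analysed. A list has no replicate error, so the differences given below carry no test, and the read depth behind the peaks is unknown. FOXA1 is best known from endodermal and hormone-responsive tissues and HNF4A from liver, and the sites described are those of tagged proteins introduced into fibroblasts. Peak lists hold no expression values, and the fibroblast label could not be checked against marker genes.

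Collagen molecules are triple helices of chains encoded by separate genes. Fibroblasts are known as the main makers of the fibrillar collagens, of which type I and type III dominate in skin. Other classes coat fibrils, form sheets in basement membranes, make beaded filaments or anchor in the cell membrane. After synthesis, chains are hydroxylated, folded with the help of chaperones, trimmed by proteases and cross-linked outside the cell.

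The central 200 bases of 8 peaks are shown because they carry the contrasts described below: FOXA1 sites with and without the short word that forkhead factors recognise, sites kept or not kept by the variants, and HNF4A sites at fibrillar genes. They were read from the forward strand of hg19. Capitals mark the forkhead core, TGTTTAC or TATTTAC, or the same words read on the other strand, GTAAACA and GTAAATA.
COL5A2 highest-scoring FOXA1 peak, without a core, chr2:189953986-189954185: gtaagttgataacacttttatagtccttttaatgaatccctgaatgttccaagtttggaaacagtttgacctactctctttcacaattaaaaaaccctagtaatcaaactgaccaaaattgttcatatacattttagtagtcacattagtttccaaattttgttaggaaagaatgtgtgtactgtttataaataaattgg
COL3A1 highest-scoring FOXA1 peak of that gene, chr2:189840160-189840359: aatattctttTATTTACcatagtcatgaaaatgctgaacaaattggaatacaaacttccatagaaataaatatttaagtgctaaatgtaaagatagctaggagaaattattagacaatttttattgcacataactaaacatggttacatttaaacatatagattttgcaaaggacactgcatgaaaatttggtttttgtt
COL8A1 highest-scoring FOXA1rraa peak, chr3:99521490-99521689: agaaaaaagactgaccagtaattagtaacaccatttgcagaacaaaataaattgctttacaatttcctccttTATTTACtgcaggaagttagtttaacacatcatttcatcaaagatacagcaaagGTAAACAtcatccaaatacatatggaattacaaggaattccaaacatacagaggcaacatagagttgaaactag
COL25A1 FOXA1 peak overlapped by no variant, chr4:110054589-110054788: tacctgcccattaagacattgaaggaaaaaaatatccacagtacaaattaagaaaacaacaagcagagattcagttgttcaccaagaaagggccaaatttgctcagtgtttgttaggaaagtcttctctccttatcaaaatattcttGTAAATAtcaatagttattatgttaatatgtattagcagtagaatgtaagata
COL5A1 highest-scoring FOXA1dbd peak, chr9:137561761-137561960: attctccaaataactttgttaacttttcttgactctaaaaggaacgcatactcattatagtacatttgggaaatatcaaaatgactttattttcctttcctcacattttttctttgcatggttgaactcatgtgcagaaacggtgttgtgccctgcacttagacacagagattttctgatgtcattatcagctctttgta
COL1A1 highest-scoring FOXA1 peak of that gene, chr17:48295291-48295490: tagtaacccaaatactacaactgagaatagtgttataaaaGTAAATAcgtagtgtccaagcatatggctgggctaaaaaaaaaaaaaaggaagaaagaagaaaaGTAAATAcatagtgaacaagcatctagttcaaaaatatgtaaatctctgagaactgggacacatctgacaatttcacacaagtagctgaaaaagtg
COL1A1 highest-scoring HNF4A peak of that gene, chr17:48289228-48289427: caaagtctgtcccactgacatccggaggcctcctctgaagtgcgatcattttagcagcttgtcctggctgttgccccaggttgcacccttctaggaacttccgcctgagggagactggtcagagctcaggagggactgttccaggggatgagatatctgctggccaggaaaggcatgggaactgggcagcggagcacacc
COL27A1 highest-scoring HNF4A peak, chr9:116946548-116946747: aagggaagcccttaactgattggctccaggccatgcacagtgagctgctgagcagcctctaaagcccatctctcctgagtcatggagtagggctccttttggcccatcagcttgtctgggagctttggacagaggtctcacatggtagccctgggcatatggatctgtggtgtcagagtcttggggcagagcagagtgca

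Most collagen genes had FOXA1 and HNF4A peaks within reach, and the 2 proteins were dense at different collagens. FOXA1 had 603 peaks in the windows, and HNF4A had 180. FOXA1dbd had 100 peaks, FOXA1nhaa 449 and FOXA1rraa 271. The full lists differ in size in the same order for the FOXA1 proteins, with 155652 peaks for FOXA1, 28831 for FOXA1dbd, 105591 for FOXA1nhaa and 71202 for FOXA1rraa (the HNF4A list has 38291), so counts compare members within a list and not proteins. At an equal number of 28831 highest-scoring peaks, 109 FOXA1 peaks lay at collagens, beside 128 of FOXA1nhaa, 101 of FOXA1rraa, 100 of FOXA1dbd and 132 of HNF4A. With that cut FOXA1 reached 22 members and HNF4A 34, so that the order of the FOXA1 and HNF4A counts in the full lists was turned. The shares of all genes reached at that cut were not counted, so nothing particular to collagens follows from it.

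A FOXA1 peak was present at 39 of 42 collagens, against 77.2% of all 19229 genes. FOXA1dbd had a peak at 22 of 42, against 47.2% of all genes. The corresponding numbers were 38 against 70.8% for FOXA1nhaa, 33 against 62.9% for FOXA1rraa and 35 against 77.4% for HNF4A. Collagen genes are long, and a long window has more room for a peak: the median window was 173 kb, against 67.6 kb for all genes. Among the longest quintile of windows (genes ranked by window length and cut into 5 equal groups), 130 to 2514 kb, 22 of 24 collagens had a FOXA1 peak, against 93.7% of all genes there. In that quintile FOXA1dbd had a peak at 15 of the 24, against 82.0% of all genes. Of these 24, FOXA1nhaa reached 23, against 95%, FOXA1rraa 21, against 89.8%, and HNF4A 19, against 84.4%. Among windows of this length the collagens were near the share of all genes in the FOXA1, FOXA1nhaa, FOXA1rraa and HNF4A lists, and FOXA1dbd was the list with the widest gap.

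Per length, FOXA1 had 7.85 peaks per 100 kb of the collagen windows (95% Poisson interval over peaks, 7.23 to 8.50) and 7.38 over all gene windows. FOXA1dbd had 1.30 (1.06 to 1.58) against 1.32 per 100 kb. FOXA1nhaa had 5.84 (5.32 to 6.41) against 4.91 per 100 kb. For FOXA1rraa the density was 3.53 (3.12 to 3.97) against 3.41 per 100 kb, and for HNF4A 2.34 (2.01 to 2.71) against 2.01 per 100 kb. These intervals cover counting error only, and peaks cluster, so they are too narrow for a comparison between gene sets. Taken gene by gene over windows of every length, the medians were close: 4.36 FOXA1 peaks per 100 kb at collagens and 4.04 at all genes, and 2.46 against 2.34 for HNF4A. The median was 0.643 against 0 for FOXA1dbd, 3.63 against 2.41 for FOXA1nhaa and 2.10 against 1.76 for FOXA1rraa. These medians set long collagen windows beside many short ones. In the longest quintile, the 24 collagens had lower medians than all genes: 4.52 against 7.57 (FOXA1), 0.879 against 1.25 (FOXA1dbd) and 4.65 against 5.05 (FOXA1nhaa). FOXA1rraa had 2.41 against 3.24 and HNF4A 1.13 against 1.38. For FOXA1 the next 2 quintiles had 2.97 against 6.32 and 2.26 against 3.93, and the one below, with 2 collagens, 5.22 against 2.03.

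A few genes held a large share of the FOXA1 peaks. COL5A2, COL11A1, COL24A1, COL25A1 and COL12A1 together had 310 of the 603, or 51.4%, on 21.7% of the length. The adjacent genes COL3A1 and COL5A2 had 116 peaks, or 39.9 per 100 kb, on 3.79% of the length. Without COL3A1, COL5A2 and COL11A1, the 3 densest members and so chosen after their values were seen, the FOXA1 density of the other 39 members was 5.67 per 100 kb. Leaving out the densest genes lowers a density by construction, and no dense gene was taken out of the value for all gene windows.

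**Figure D1:**
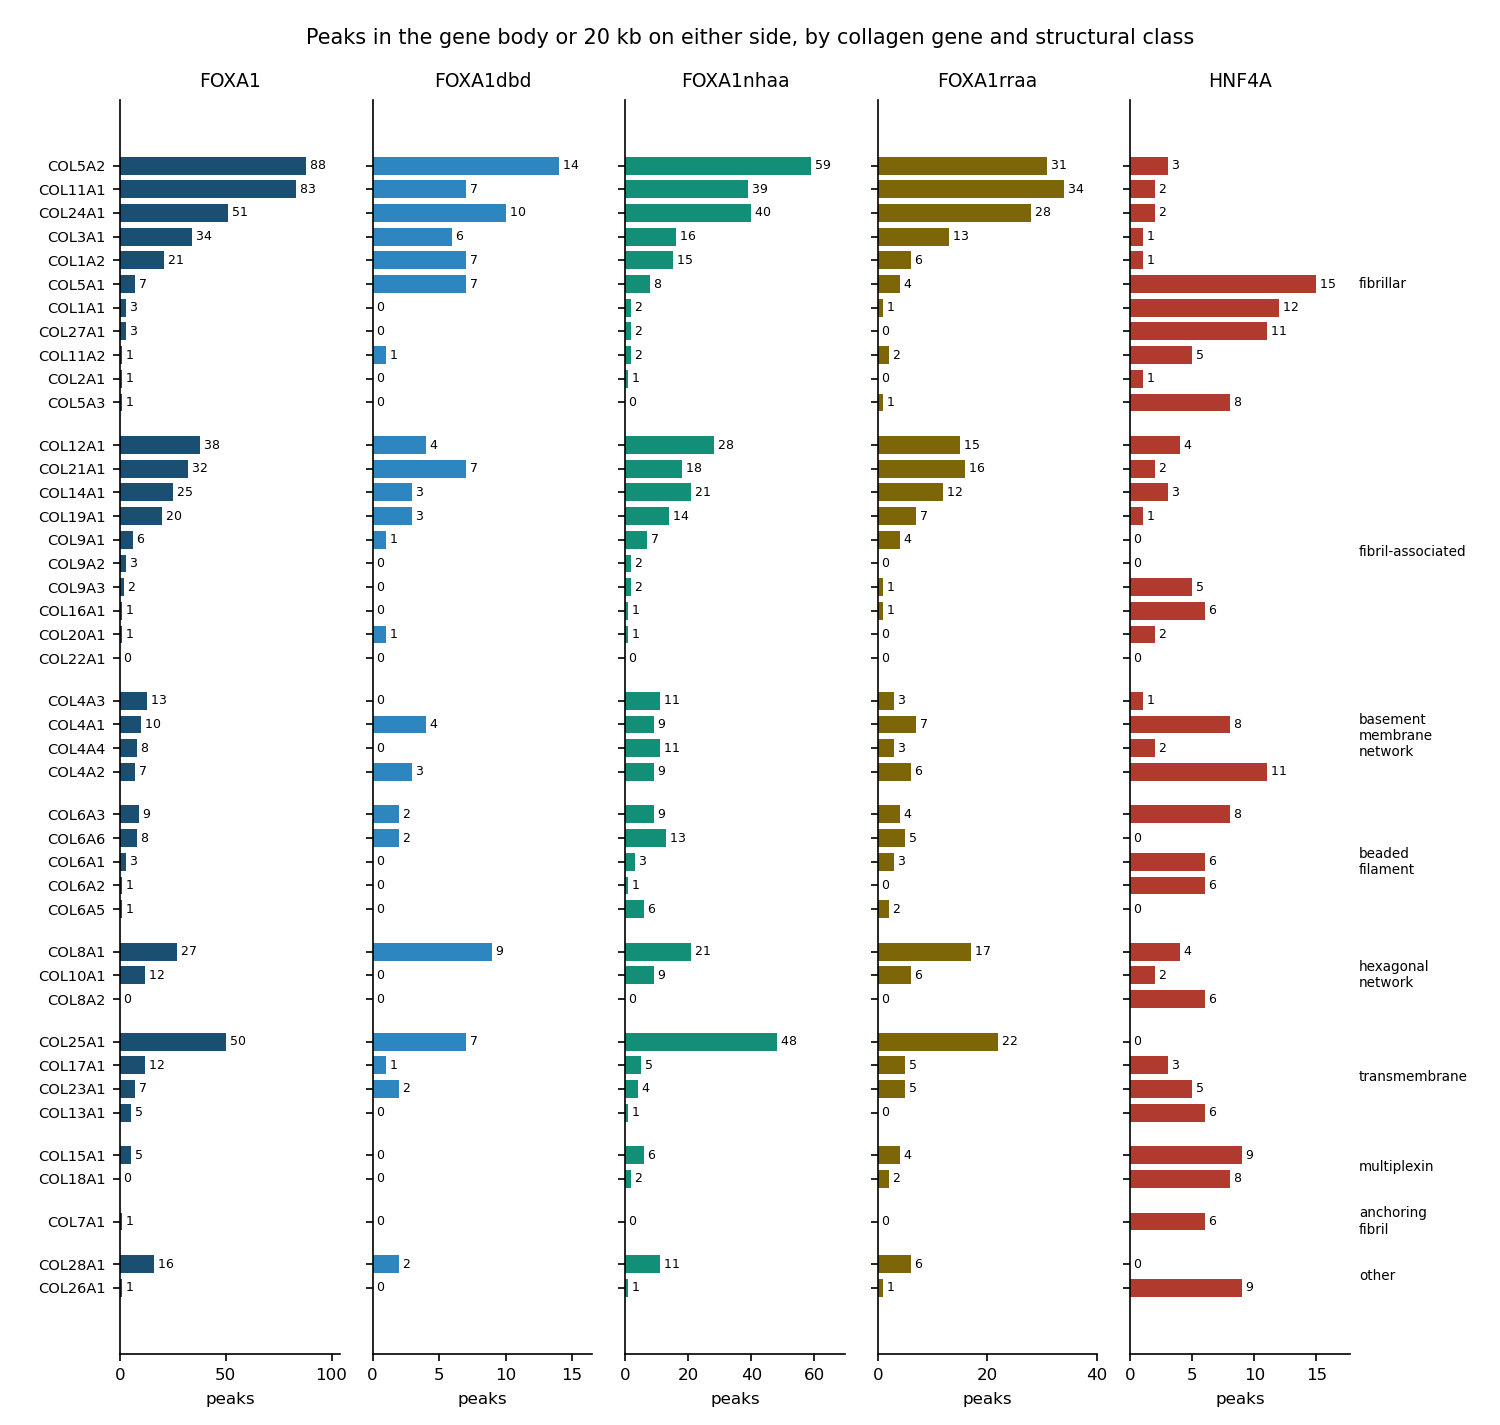
Number of peaks in each collagen window (bars, with the number beside each) for the 5 lists, with genes grouped by structural class and ordered by FOXA1 peaks within a class. The x axes differ between lists. The bars for COL5A2 (88) and COL11A1 (83) lead the FOXA1 panel, whereas COL5A1 (15) and COL1A1 (12) lead the HNF4A panel.

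The fibrillar class, whose products assemble into the banded fibrils of skin, bone and cartilage, had 287 FOXA1 peaks over 11 genes, or 15.6 per 100 kb, and 61 HNF4A peaks, or 3.32 per 100 kb. Within it, the genes were split into 2 sets by the G+C content of their windows, after their peak counts were seen. COL1A2, COL3A1, COL5A2, COL11A1 and COL24A1 had 271 FOXA1 peaks (24.5 per 100 kb) and 9 HNF4A peaks (0.813 per 100 kb). The remaining members COL1A1, COL2A1, COL5A1, COL5A3, COL11A2 and COL27A1 had 16 FOXA1 peaks (2.19 per 100 kb) and 52 HNF4A peaks (7.12 per 100 kb). The first set has a window G+C content of 33.7 to 37.9% and the second one of 50.2 to 55.7%. COL2A1, in the second set, had 1 FOXA1 and 1 HNF4A peak. The sets differ in base composition by choice, and the part of base composition in the contrast was not tested.

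Type I collagen, the main protein of skin and bone, is built from the chains of COL1A1 and COL1A2, and these genes had opposite peak contents. COL1A1, on chromosome 17, had 3 FOXA1, 0 FOXA1dbd, 2 FOXA1nhaa, 1 FOXA1rraa and 12 HNF4A peaks in a 57.5 kb window of 55.0% G+C. COL1A2, on chromosome 7, had 21, 7, 15, 6 and 1 peaks of the same lists in a 76.3 kb window of 37.9% G+C. The FOXA1 densities were 5.21 per 100 kb at COL1A1 and 27.5 at COL1A2, and the HNF4A densities were 20.9 and 1.31. All 3 FOXA1 peaks of COL1A1 lay upstream of the gene body, and the site 16398 bp upstream whose bases are shown above had a score of 136 and 2 cores. Among the variants only FOXA1rraa overlapped that site, and its row is a copy of the FOXA1 row. Of the 12 HNF4A peaks, 7 lay in the body of COL1A1, and the highest, with a score of 402, was 10335 bp upstream. In COL1A2 the single HNF4A peak, with a score of 168, lay 1347 bp upstream of the 5′ end, and the highest FOXA1 score of 281 lay 15.1 kb inside the gene.

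COL3A1, which encodes the chain of type III collagen, had the highest FOXA1 density of all members. It had 34 FOXA1, 6 FOXA1dbd, 16 FOXA1nhaa, 13 FOXA1rraa and 1 HNF4A peaks in 78.4 kb, which is 43.4 FOXA1 peaks per 100 kb. The strongest FOXA1 peak there, scoring 459 and holding 1 core, lay 1.16 kb inside the gene in an intron. Another intron site, 2.50 kb from the 5′ end, had the highest FOXA1nhaa score of any collagen, 406, and overlapped FOXA1, FOXA1dbd and FOXA1rraa peaks.

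Type V collagen regulates the diameter of type I fibrils, and its 3 genes split in the same way. COL5A2, read toward COL3A1 from the opposite strand across a gap of 19151 bp, had 88 FOXA1, 14 FOXA1dbd, 59 FOXA1nhaa, 31 FOXA1rraa and 3 HNF4A peaks, the most of any member in the FOXA1, FOXA1dbd and FOXA1nhaa lists. Its FOXA1 density was 37.7 per 100 kb, and 6 of the FOXA1 peaks were shared with the COL3A1 window. COL5A1 had 7, 7, 8, 4 and 15 peaks of the 5 lists, and all 15 HNF4A peaks overlapped its gene body. COL5A3 had 1, 0, 0, 1 and 8, so that both G+C-rich type V genes had more HNF4A than FOXA1 peaks.

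Type XI and type II collagen form cartilage fibrils. COL11A1 had 83 FOXA1, 7 FOXA1dbd, 39 FOXA1nhaa, 34 FOXA1rraa and 2 HNF4A peaks, which is 30.5 FOXA1 peaks per 100 kb, and its window had the lowest G+C content of all members, 33.7%. COL11A2 had 1, 1, 2, 2 and 5 peaks, and COL2A1 had 1, 0, 1, 0 and 1. The minor fibrillar genes COL24A1 and COL27A1 were again opposite, with 51, 10, 40, 28 and 2 peaks at COL24A1 and 3, 0, 2, 0 and 11 at COL27A1. The highest-scoring HNF4A peak of all collagens, scoring 603 with an enrichment of 18.8-fold, lay in an intron of COL27A1, 28.8 kb from the 5′ end, outside all FOXA1 and variant peaks.

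**Figure D2:**
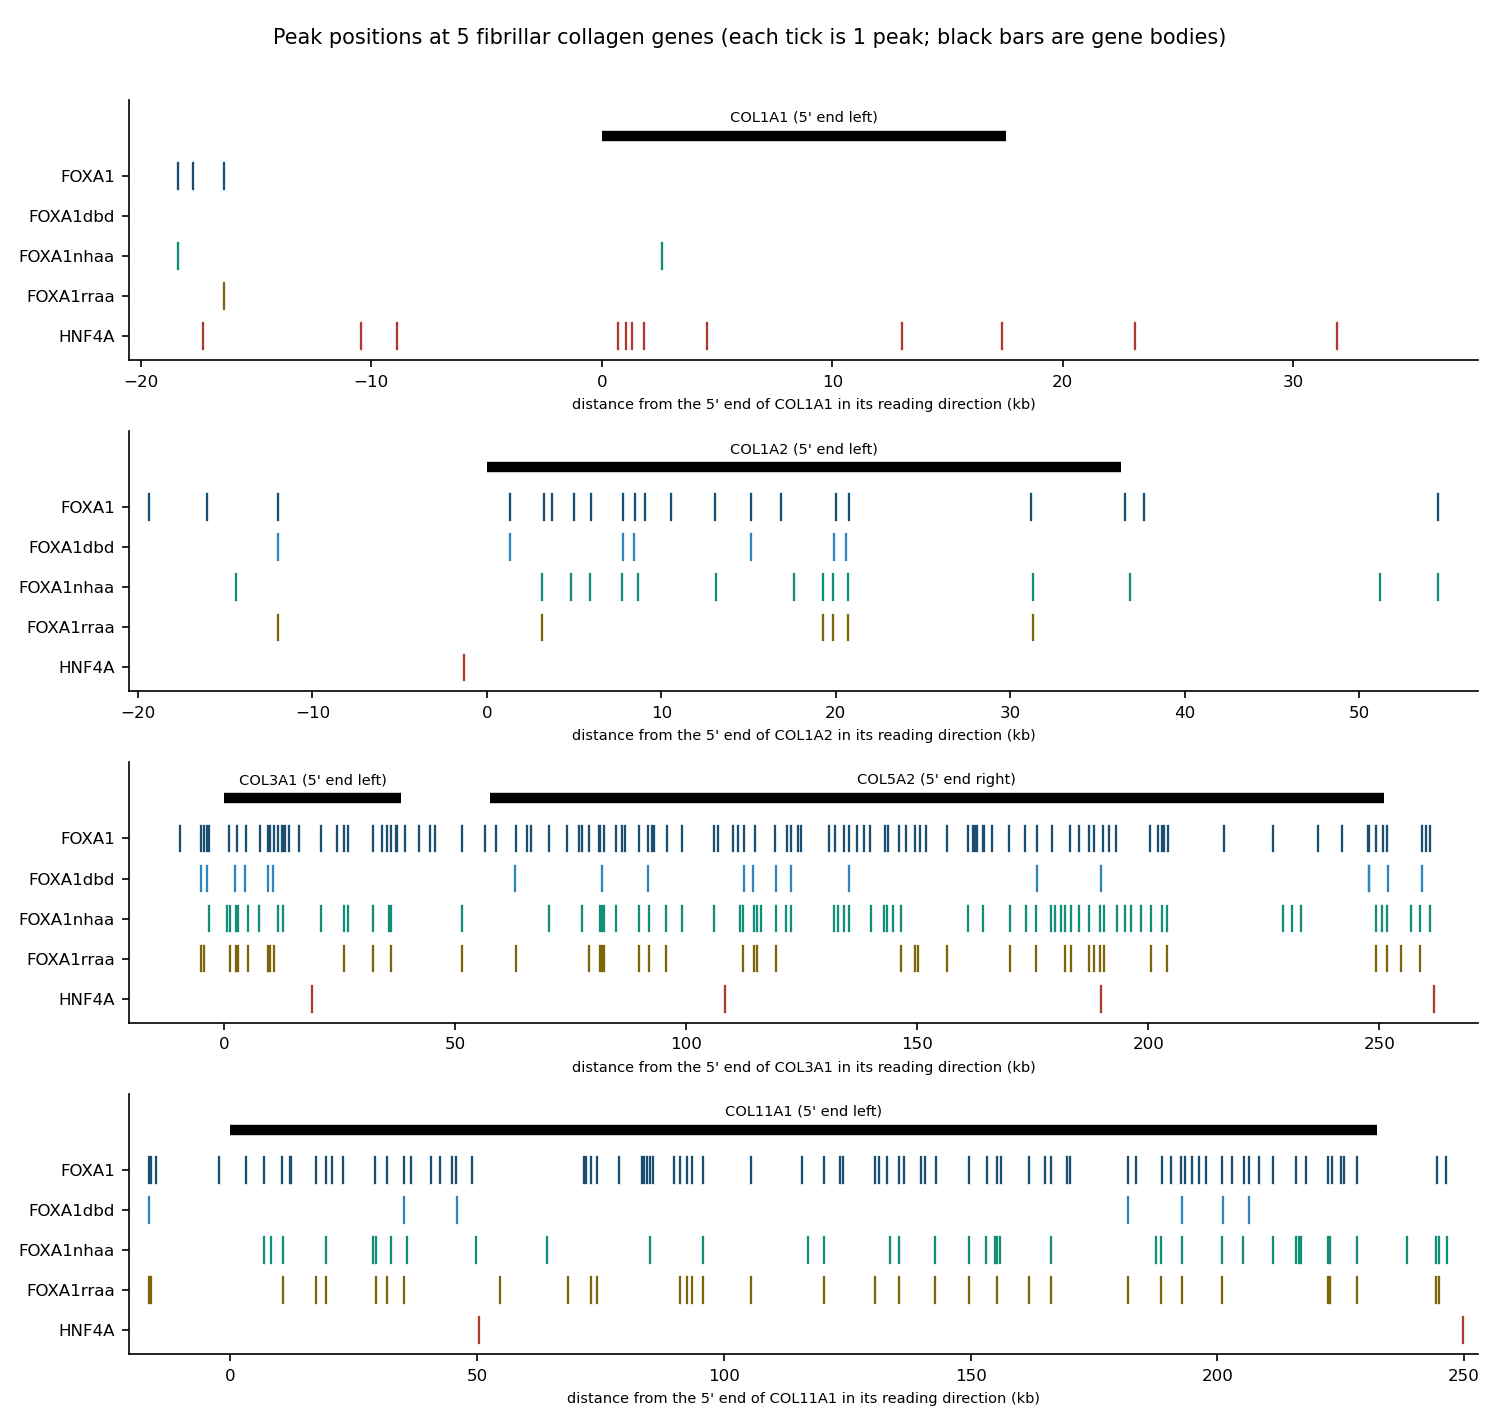
Positions of the peaks of the 5 lists (1 tick per peak) around COL1A1, COL1A2, COL3A1 with COL5A2, and COL11A1, in kb from the 5′ end of the first gene and in its reading direction, with gene bodies as black bars. FOXA1 ticks spread over the whole of COL1A2, COL3A1, COL5A2 and COL11A1, whereas COL1A1 has 3 FOXA1 ticks, all upstream, and 12 HNF4A ticks.

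The fibril-associated collagens, which sit on fibril surfaces, had 124 FOXA1 peaks over 10 genes (6.10 per 100 kb) and 23 HNF4A peaks (1.13 per 100 kb). COL12A1, found on type I fibrils, led with 38 FOXA1, 4 FOXA1dbd, 28 FOXA1nhaa, 15 FOXA1rraa and 4 HNF4A peaks, or 23.5 FOXA1 peaks per 100 kb. COL21A1 had 32 FOXA1 peaks, COL14A1 25 and COL19A1 20. The type IX genes had 6 (COL9A1), 3 (COL9A2) and 2 (COL9A3), and COL16A1 and COL20A1 had 1 each. COL22A1, whose product lies at tissue junctions such as that of muscle and tendon, had no peak in any of the 5 lists in a window of 366 kb. With the read depth unknown, that means only that no stretch passed the authors' threshold.

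The network-forming collagens fell into 2 classes with different FOXA1 densities. The basement membrane genes COL4A1 to COL4A4 had 34 FOXA1 peaks (4.50 per 100 kb) and 18 HNF4A peaks (2.38 per 100 kb). They lie in head-to-head pairs, and 15 FOXA1 and 15 HNF4A peaks fell at COL4A1 and COL4A2 together, against 19 and 3 at COL4A3 and COL4A4. FOXA1dbd had 5 peaks at the first pair and 0 at the second. The 3 hexagonal-network genes had 39 FOXA1 peaks (11.1 per 100 kb), against 15.6 per 100 kb for the fibrillar class and 6.91 for that class without COL3A1, COL5A2 and COL11A1. They were uneven: COL8A1 had 27 FOXA1 and 4 HNF4A peaks and COL10A1, made by growth-plate cartilage cells, had 12 and 2, whereas COL8A2 had no peak of FOXA1 or its variants and 6 of HNF4A.

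The beaded-filament genes of type VI collagen had 22 FOXA1 peaks (3.44 per 100 kb) and 20 HNF4A peaks (3.13 per 100 kb). COL6A3 had 9 FOXA1 and 8 HNF4A peaks, COL6A1 3 and 6, and COL6A2 1 and 6. COL6A6 had 8 and 0, and COL6A5 1 and 0. At COL6A5 and COL6A6 FOXA1nhaa had more peaks than FOXA1, 6 and 13. The same was found in other classes, as at COL4A4 (11 FOXA1nhaa and 8 FOXA1 peaks) and COL9A1 (7 and 6).

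Among the membrane-spanning collagens, COL25A1 had 50 FOXA1, 7 FOXA1dbd, 48 FOXA1nhaa, 22 FOXA1rraa and 0 HNF4A peaks in the longest window of all members, 534 kb. It also had the most FOXA1nhaa peaks outside FOXA1 peaks, 24. COL17A1, a component of the junctions that hold epidermis to its basement membrane, had 12 FOXA1 and 3 HNF4A peaks, COL23A1 7 and 5, and COL13A1 5 and 6. The multiplexins COL15A1 and COL18A1, which are cleaved to release the endostatin-type fragments, had 5 and 0 FOXA1 peaks and 9 and 8 HNF4A peaks. COL18A1 had 2 FOXA1nhaa and 2 FOXA1rraa peaks without any FOXA1 peak. COL7A1, the gene of anchoring fibrils, had 1 FOXA1 and 6 HNF4A peaks. COL28A1 had 16 FOXA1 and 0 HNF4A peaks, and COL26A1 had 1 and 9.

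HNF4A and FOXA1 thus had most of their peaks at different members. HNF4A peaks outnumbered FOXA1 peaks at 17 of 42 collagens (40.5%), against 31.5% of all genes, although the HNF4A list is the shorter one. The 17 were COL1A1, COL4A2, COL5A1, COL5A3, COL6A1, COL6A2, COL7A1, COL8A2, COL9A3, COL11A2, COL13A1, COL15A1, COL16A1, COL18A1, COL20A1, COL26A1 and COL27A1. Their windows had a G+C content of 46.4 to 59.0%, and the 23 members with more FOXA1 peaks had 33.7 to 50.1%. More FOXA1 peaks were thus found at 54.8% of collagens, against 53.6% of all genes. COL2A1 and COL22A1 had equal numbers (4.76%), against 14.9% of all genes, whose median window was 52.5 kb. The shares with more HNF4A peaks therefore differ along with the share of ties.

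Across the 42 members, the density of peaks followed base composition in opposite directions. Spearman's rho between G+C content and density was -0.741 (FOXA1), -0.542 (FOXA1dbd), -0.777 (FOXA1nhaa), -0.699 (FOXA1rraa) and 0.711 (HNF4A). Over all 19229 genes the values were -0.565, -0.422, -0.594, -0.528 and 0.512. These are descriptions across genes that share a library, a cell line and in some cases a window, and genes are not replicates. In the lowest G+C quintile of all genes (31.8 to 39.6%), the 16 collagens had a median of 10.1 FOXA1 peaks per 100 kb, against 11.1 for all genes of that quintile, and 0.632 HNF4A peaks, against 0.622. In the highest quintile (51.4 to 66.3%), the 12 collagens had a median of 1.42 FOXA1 peaks per 100 kb against 0, and 7.43 HNF4A peaks against 5.84. COL12A1, COL1A2, COL11A1, COL5A2 and COL3A1, all in the lowest quintile, had 23.5, 27.5, 30.5, 37.7 and 43.4 FOXA1 peaks per 100 kb and stood farthest above its median. Densities of FOXA1 and HNF4A had a rho of -0.350 over the collagens and -0.0101 over all genes.

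**Figure D3:**
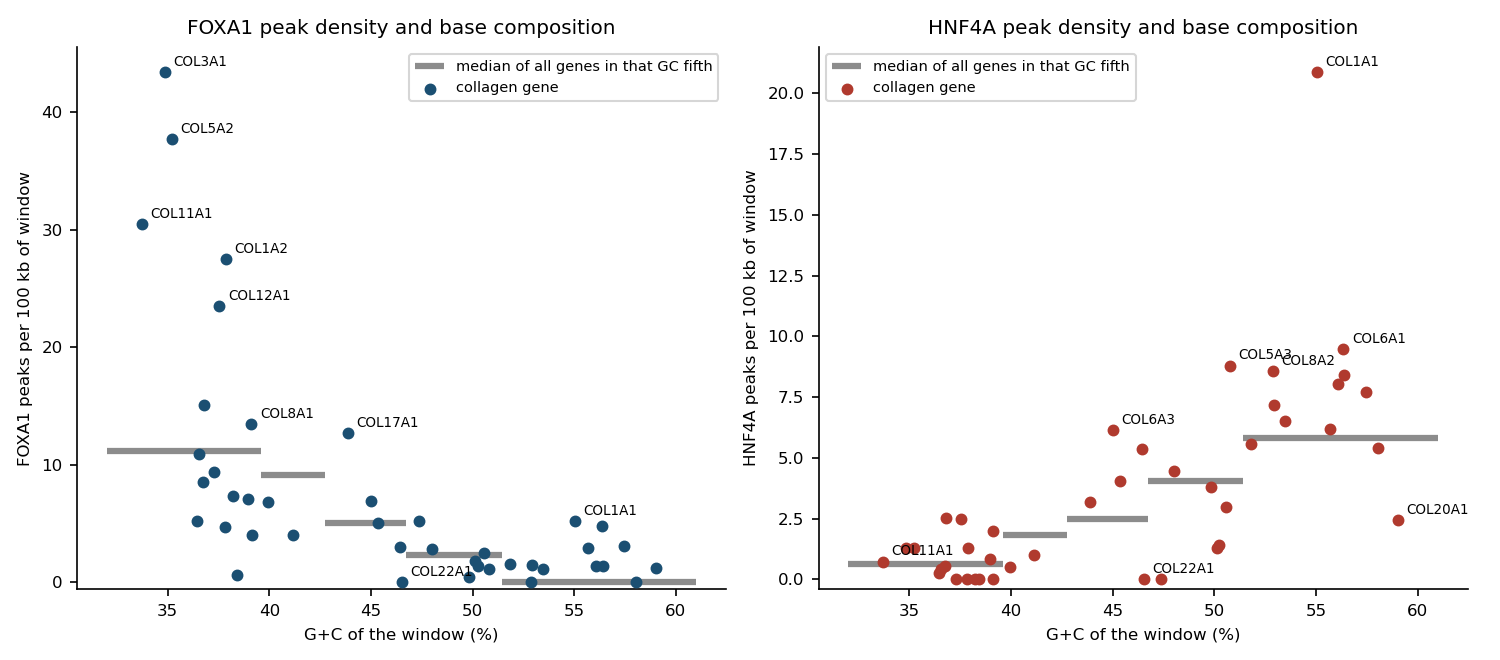
FOXA1 (left) and HNF4A (right) peaks per 100 kb of each collagen window (points) against its G+C content in percent, with grey bars at the median of all genes in each quintile of G+C content. FOXA1 density falls and HNF4A density rises with G+C content, and COL3A1 at 43.4 and COL1A1 at 20.9 per 100 kb stand highest in the respective panels.

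The variants were found at part of the FOXA1 sites of collagens, in shares near those at other genes. An overlap of 1 bp or more counted as shared. FOXA1dbd overlapped 94 of the 603 FOXA1 peaks, or 15.6% (95% Wilson interval, 12.9 to 18.7), against 16.9% of FOXA1 peaks at all genes. FOXA1nhaa overlapped 262, or 43.4% (39.5 to 47.4), against 41.4%. FOXA1rraa overlapped 217, or 36.0% (32.3 to 39.9), against 41%, and the interval lay below the value for all genes. HNF4A overlapped 7, or 1.16% (0.563 to 2.38), against 1.71%. No variant overlapped 249 FOXA1 peaks, or 41.3%, against 40.3%, and all 3 overlapped 46, or 7.63%, against 8.29%. These intervals too cover counting error over peaks only. With all lists cut to 28831 peaks, FOXA1dbd and FOXA1nhaa each overlapped 33.0% of FOXA1 peaks at collagens and FOXA1rraa 34.9%. The difference between FOXA1dbd and FOXA1nhaa in the full lists was thus not seen at equal list size. Rows copied from the FOXA1 list were not taken out of FOXA1rraa for this cut, so its share cannot be compared with the other 2.

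The FOXA1rraa share needs a limit that is visible in the rows. Of the 271 FOXA1rraa rows at collagens, 68 (25.1%, 20.3 to 30.6) are rows of the FOXA1 list with the same coordinates and name, against 32% at all genes. A further 175 are rows of the FOXA1nhaa list, and 28 are in neither. Without the rows taken from the FOXA1 list, FOXA1rraa overlapped 149 FOXA1 peaks. Their share was 24.7% (21.4 to 28.3), and the 26.2% found likewise at all genes lay inside the interval. That share still holds the rows in common with FOXA1nhaa, so the overlaps of FOXA1rraa and FOXA1nhaa are not separate measurements. The FOXA1 peaks overlapped by FOXA1rraa and not by FOXA1nhaa numbered 68, the same number as the copied FOXA1 rows. Those overlapped by both numbered 149, the same number as the overlap without copied rows. A copied row overlaps its own FOXA1 peak by identity, so the 68 are no measure of FOXA1rraa sites apart from FOXA1nhaa.

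Seen from the variants, 99 of 100 FOXA1dbd peaks at collagens overlapped a FOXA1 peak, against 97.5% at all genes. The share was 276 of 449 (61.5%) against 61.9% for FOXA1nhaa and 229 of 271 (84.5%) against 88.4% for FOXA1rraa. Rows copied from the FOXA1 list overlap it by identity, and without them the FOXA1rraa share was 161 of 203 (79.3%) against 82.9%. For HNF4A it was 7 of 180 (3.89%, 1.90 to 7.81) against 6.21%. The 7 HNF4A peaks on FOXA1 sites lay at COL4A2, COL4A4, COL5A1, COL5A2, COL6A3, COL8A1 and COL24A1, 1 at each. All 7 also overlapped FOXA1nhaa peaks, 6 overlapped FOXA1rraa peaks and 4 overlapped FOXA1dbd peaks. From an HNF4A peak to the centre of the nearest FOXA1 peak the median distance was 13 kb at collagens (quartiles 3.60 and 29.8 kb) and 5.97 kb at all genes.

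Members differed in which FOXA1 sites the variants shared. FOXA1nhaa overlapped 45 of the 88 FOXA1 peaks of COL5A2 (51.1%), 25 of 50 at COL25A1 (50%) and 25 of 83 at COL11A1 (30.1%). FOXA1rraa overlapped 26 at COL5A2 (29.5%), 20 at COL25A1 (40%) and 31 at COL11A1 (37.3%). Without the rows copied from the FOXA1 list, FOXA1rraa overlapped 21, 16 and 17 FOXA1 peaks at COL5A2, COL25A1 and COL11A1, below the FOXA1nhaa number at each, so that its excess at COL11A1 was turned. FOXA1dbd overlapped 5 of 7 FOXA1 peaks at COL5A1 and 7 of 21 at COL1A2, but 3 of 38 at COL12A1 and 0 of 13 at COL4A3. The highest FOXA1dbd score at collagens, 155, was at COL5A1 in an intron 28.2 kb from the 5′ end.

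FOXA1 sites in the highest quintile by score were shared more often than those in the lowest, at collagens as at all genes. The score is the authors' peak score, larger for stronger peaks, and ranks peaks within a list only. Among collagen FOXA1 peaks in the lowest quintile of the whole FOXA1 list by score, 8.11% were overlapped by FOXA1dbd, 25.2% by FOXA1nhaa and 15.3% by FOXA1rraa. The highest quintile had values of 32.8%, 67.2% and 61.2%. Over FOXA1 peaks at all genes, the lowest quintile had 8.57%, 26.8% and 20.8%, and the highest 31.1%, 63.8% and 72.3%. The FOXA1rraa values include rows copied from the FOXA1 list, which overlap it by identity. The 249 collagen peaks without any variant had a median score of 97 and a median width of 235 bp, and the 46 with all 3 had 254.5 and 568.5 bp. At all genes these medians were 100 and 240 bp without any variant, and 236 and 501 bp with all 3. A wider peak has more room for an overlap, and width and score were not separated here. The scores of collagen peaks were spread like those of their lists, since 19.2% of FOXA1 and 19.4% of HNF4A peaks at collagens were in the top quintile of their list. The highest FOXA1 score was 649, in an intron of COL5A2 136 kb from the 5′ end, where all 3 variants also had peaks, and the highest score at any gene was 1518.

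**Figure D4:**
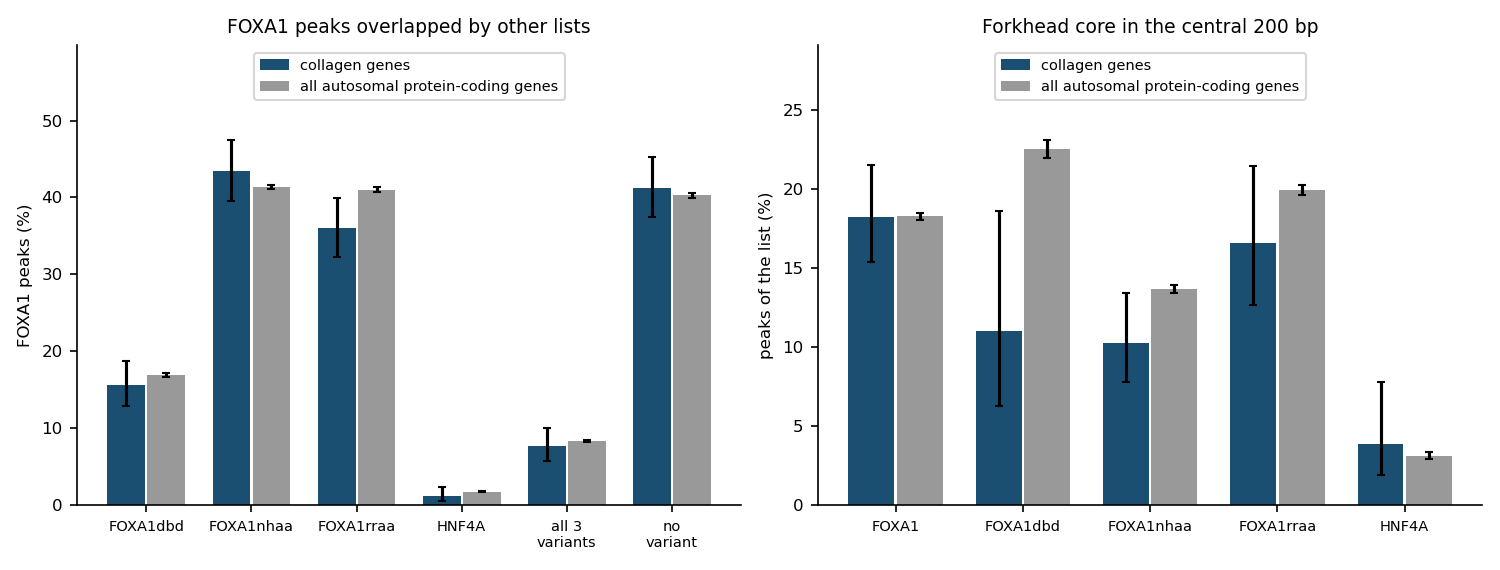
Left, percentage of FOXA1 peaks overlapped by peaks of each other list, by all 3 variants or by none. Right, percentage of peaks of each list with a forkhead core in the central 200 bp. Bars are collagen genes (blue) and all autosomal protein-coding genes (grey), with 95% Wilson intervals over peaks. The widest gap between the groups in the left panel is that of FOXA1rraa, 36.0% against 41%, and in the right panel that of FOXA1dbd, 11% against 22.5%. The FOXA1rraa bars include rows copied from the FOXA1 list. Without them the shares were 24.7% (21.4 to 28.3) against 26.2%.

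The forkhead core was present in a minority of the FOXA1 sites at collagens. The words TGTTTAC and TATTTAC were searched on both strands in 200 bp around the summit, or around the midpoint where a row gives no summit inside it, which for FOXA1 is every row. A core was found in 110 of 603 FOXA1 peaks, 18.2% (15.4 to 21.5), against 18.3% of FOXA1 peaks at all genes. In the central 100 bp it was found in 8.96% of them. The share was 10.2% (7.77 to 13.4) against 13.7% for FOXA1nhaa and 16.6% (12.6 to 21.5) against 20% for FOXA1rraa. FOXA1dbd had 11 of 100, 11% (6.25 to 18.6), against 22.5%, whereas among the 94 FOXA1 peaks that FOXA1dbd overlapped the share was 19.1% against 21.5%. HNF4A had 3.89% against 3.13%. The highest-scoring FOXA1 peak of COL5A2 and the highest-scoring FOXA1dbd peak of COL5A1, shown above, held no exact core.

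Among FOXA1 sites of collagens without any variant, 49 of 249 held the core (19.7%, 15.2 to 25.1), and among those with a variant 61 of 354 (17.2%, 13.7 to 21.5), with overlapping intervals. The site of COL25A1 shown above is the highest-scoring of the former kind whose bases are printed, with a score of 252 and 1 core, 169 kb from the 5′ end. The COL8A1 site, downstream of the gene body and 164 kb from the 5′ end, had a score of 511 and 2 cores, and it was overlapped by FOXA1dbd and FOXA1rraa and not by FOXA1nhaa. Its FOXA1rraa row is again a copy of the FOXA1 row. Of the 110 FOXA1 peaks with a core, 101 had 1 and the others had more.

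The word CAAAGTCCA, the core of the HNF4A site, was found on neither strand in the central 200 bp of the 180 HNF4A peaks at collagens (0%, with an upper Wilson limit of 2.09%), against 0.943% of HNF4A peaks at all genes. That says only that these letters are not in these windows. The centres differed in composition, with a median G+C content of 55.75% for HNF4A peaks at collagens and 32% for FOXA1 peaks, against 54% and 32.5% at all genes.

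FOXA1 peaks lay mostly in introns of the collagen genes. Of the 603, 455 (75.5%) had their centre in a collagen intron, 22 in an exon, 22 within 1000 bp of an annotated collagen start and 104 in the flanks. Of the 180 HNF4A peaks, 94 (52.2%) were in introns, 6 in exons, 30 (16.7%) at collagen starts and 50 in flanks, 16 of which were at a start of another protein-coding gene. Among the better-scoring 50% of the HNF4A list the share at collagen starts was 8.05%. Counting the start of any protein-coding gene, 25.6% of HNF4A peaks at collagens (19.7 to 32.4) were at a start, against 40.2% at all genes. For FOXA1 that share was 4.98% (3.51 to 7.01) against 8.18%. Introns held 54.4% of HNF4A peaks against 41.3%, and 78.6% of FOXA1 peaks against 73.9%. Long genes have more intron for each start, and the part of gene length in this was not tested. Per 100 kb, FOXA1 had 8.10 peaks in collagen bodies and 6.77 in flanks, whereas HNF4A had 2.07 and 3.45.

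At the 5′ ends of collagens, HNF4A had peaks at 26.2% of members, against 39.9% of all genes, and FOXA1 at 4.76%, against 7.6%. A FOXA1 peak centre lay within 1000 bp of the 5′ end at 2 members, COL5A2 and COL10A1, against 7.6% of all genes. FOXA1dbd did so at 1, COL5A2, against 1.85%. FOXA1nhaa did so at COL3A1, COL4A2, COL5A2, COL6A5 and COL10A1, 5 members, against 4.58%. FOXA1rraa did so at COL5A2 and COL10A1, 2 members, against 2.77%. HNF4A did so at 11 members, COL1A1, COL4A1, COL5A1, COL6A1, COL6A2, COL7A1, COL9A3, COL13A1, COL15A1, COL18A1 and COL26A1, against 39.9% of all genes. No member had both a FOXA1 and an HNF4A peak there. With 2 and 11 members, at most 2 could have had both, and the same count over all genes was not made. Nothing about collagens follows from it.

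The strongest of these HNF4A sites were at COL9A3, a chain of cartilage type IX collagen, with a score of 576 at 126 bp, and at COL6A1, a chain of type VI collagen, with a score of 415 at 982 bp inside the gene. COL5A1 had a score of 210 at 245 bp, and COL1A1 had 106 at 699 bp. The other 7 members had HNF4A scores of 34 to 117 at their 5′ ends. At COL5A2, FOXA1 had a score of 268 at -657 bp from the 5′ end, where minus marks upstream, FOXA1nhaa and FOXA1rraa shared a row with a score of 138 at -656 bp, and FOXA1dbd had 49 at -847 bp. At COL10A1, FOXA1 had a score of 219 at 457 bp inside the gene.

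Counting every annotated start of a member, FOXA1 had a peak at a start of 13 members, against 25.2% of all genes: COL1A2, COL3A1, COL4A2, COL5A1, COL5A2, COL6A3, COL10A1, COL11A1, COL12A1, COL14A1, COL21A1, COL24A1 and COL28A1. HNF4A had one at 15, against 48.8%, which were the 11 above and COL4A2, COL6A3, COL21A1 and COL27A1. FOXA1dbd had one at 5 members (7.74% of all genes), FOXA1nhaa at 13 (19.9%) and FOXA1rraa at 7 (14.9%). FOXA1nhaa alone of the 4 FOXA1 proteins had a start peak at COL1A1, COL4A3, COL6A5 and COL25A1. No list had a peak at any start of the remaining 15 members, among them COL2A1, COL8A1, COL17A1 and COL23A1. Inside gene bodies, 56.2% of HNF4A peaks (47.6 to 64.5) fell in the first part when each collagen was cut into 3 equal parts from its 5′ end, against 52.6% at all genes. FOXA1 had 31.7%, 29.9% and 38.4% in the first, middle and last part, against 33.9%, 33.4% and 32.6%.

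A further 49 genes that modify, trim, cross-link, bind or break down collagen were listed with earlier results of these data known. Of these, 22 (44.9%) had more HNF4A than FOXA1 peaks, against 31.5% of all genes. More FOXA1 peaks were found at 24 (49.0%, against 53.6%) and equal numbers at 3 (6.12%, against 14.9%). Windows of the 22 had 46.1 to 56.5% G+C and those of the 24 had 35.4 to 49.4%. A FOXA1 peak was present at 40 of the 49 (81.6%, against 77.2% of all genes) and a FOXA1dbd peak at 27 (55.1%, against 47.2%). FOXA1nhaa had one at 42 (85.7%, against 70.8%), FOXA1rraa at 37 (75.5%, against 62.9%) and HNF4A at 44 (89.8%, against 77.4%). Among the 18 enzymes and chaperones that modify chains, PLOD2, a lysyl hydroxylase of collagen telopeptides, had 60 FOXA1 and 2 HNF4A peaks, and P4HA1, a catalytic subunit of prolyl 4-hydroxylase, had 36 and 9. By contrast P4HB, the partner subunit of that enzyme, had 1 and 13, PLOD1 had 1 and 9, and the collagen chaperone SERPINH1 had 0 and 5. P4HA2, another catalytic subunit of prolyl 4-hydroxylase, had 11 and 16. Of the 18, 9 had more HNF4A than FOXA1 peaks, 8 had more FOXA1 peaks and 1 had equal numbers. The windows of PLOD2 and P4HA1 had 36.4 and 39.2% G+C, and those of P4HB, PLOD1 and SERPINH1 had 52.2 to 56.5%.

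Among the 13 trimming and cross-linking genes, 8 (61.5%) had more HNF4A than FOXA1 peaks, against 31.5% of all genes, and 5 had more FOXA1 peaks. The procollagen protease ADAMTS3 had 41 FOXA1 and 4 HNF4A peaks, and the lysyl oxidase LOX had 15 and 2. Of the FOXA1 peaks of LOX, 1 or more lay at its 5′ end. The enhancer of procollagen cleavage PCOLCE had 0 FOXA1 and 7 HNF4A peaks. Among the 10 receptors, the integrin genes ITGB1 and ITGA1 had 47 and 37 FOXA1 peaks, and the collagen-activated kinase DDR2 had 37, against 5, 5 and 11 HNF4A peaks. Other receptor genes had more HNF4A than FOXA1 peaks, namely MRC2 with 4 FOXA1 and 11 HNF4A, ITGA10 with 2 and 4 and DDR1 with 1 and 3. Of the 8 proteases that degrade collagen, 7 had FOXA1 and 5 had HNF4A peaks, against 77.2% and 77.4% of all genes, which is near those shares for so few genes. At 5′ ends, HNF4A had a peak at 26 of the 49 (53.1%, against 39.9% of all genes) and FOXA1 at 5 (10.2%, against 7.6%), namely FAP, ITGB1, LOX, MMP1 and PPIB.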

How the data were processed

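Peak lists of 5 HALO-tagged proteins in BJ fibroblasts were analysed, 1 per protein, and the down-sampled FOXA1 list served as an alternative. Samples of tagged H2B were not analysed here. Groups were taken from the sample titles. The labels' protocols give formaldehyde fixation and sonication. The submitters' processing notes name Bowtie2 2.3.4.1, Picard, GATK 4.2.6.0, bedtools 2.27.1, MACS2 2.2.7.1, deepTools 3.5.0 and the build hg19, with no role or order. Whether calling was done on single or pooled libraries is not given in the sources used here.

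The deposited lists give a score per peak, the only measurement of the FOXA1 rows. For the other proteins the deposited rows also hold the fold enrichment (a ratio), the −log10 p and −log10 q values and the summit offset. All of these are the authors' values, and here they only describe and rank peaks of the same list. The lists hold no read counts. The lowest score was 20 in each list. Rows with the same coordinates were counted once (19 repeated FOXA1dbd rows).

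Peaks were joined to GENCODE 44 genes on GRCh37 with Python 3.11.15, numpy 2.4.6, pandas 2.3.3 and pysam 0.24.0, and the 50% overlap alternative used bedtools 2.31.1. All chromosome ends lay within the reference lengths. Wilson and Poisson intervals are at 95% and cover counting error over peaks. No test across samples was possible, and the exact count of libraries behind a list is unknown. The code was tested on simulated intervals and planted cores and recovered them.

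The rule for the members uses no measured value, but the choice of collagens and the gene lists were made with earlier results of these data known. Genes chosen to be named were COL1A1, COL1A2 and COL3A1, the 5 members with most FOXA1 peaks and the 5 with the highest FOXA1 density. So were the 3 with most HNF4A peaks, members without a FOXA1 peak and members with a peak at an own start. The member with most FOXA1nhaa peaks outside FOXA1 peaks was the last choice. Not all of these genes were given with their counts in all 5 lists. Named peaks were the highest-scoring of each list, the highest-scoring FOXA1 peaks with a core overlapped by all or by no variant, and the highest-scoring HNF4A peak outside FOXA1 peaks. The peak overlapped by all variants is not reported here. The highest of the no-variant peaks, at COL14A1 with a score of 291, is given without bases, and the next, at COL25A1, was chosen after the values were seen. Alternatives covered the window, the peaks used, row merging, peak assignment, the overlap rule, the central window, the peak centre, the distance to a start, the down-sampled list and the FOXA1rraa list without FOXA1 rows.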

Additional observations from a re-analysis of the deposited data

How the results depend on the processing

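No paired analysis was possible because each protein has 1 peak list, which carries no replicate number, so no replicate was left out either. Values with every other setting moved by less than their interval or, for counts, by less than 1.5 times, in 123 comparisons, and moved further in 49. Restricted to the better-scoring 50% of every list, the peaks of FOXA1, FOXA1dbd, FOXA1nhaa, FOXA1rraa and HNF4A at collagens numbered 294, 45, 217, 134 and 87, or 3.83, 0.586, 2.82, 1.74 and 1.13 per 100 kb. FOXA1dbd then overlapped 10.5% and FOXA1nhaa 36.7% of FOXA1 peaks, and 8.05% of HNF4A peaks lay at collagen starts. With lists cut to their 28831 highest-scoring peaks, 109 FOXA1, 128 FOXA1nhaa and 101 FOXA1rraa peaks remained at 1.42, 1.67 and 1.31 per 100 kb, HNF4A was at 1.72 per 100 kb, 22 members had a FOXA1 peak, and FOXA1dbd and FOXA1nhaa each overlapped 33.0% of FOXA1 peaks. The down-sampled FOXA1 list gave 137 peaks, 1.78 per 100 kb and a FOXA1nhaa overlap of 47.4%. Without rows of the FOXA1 list, FOXA1rraa had 2.64 peaks per 100 kb and overlapped 24.7%. With centres within 200 bp in place of any overlap, FOXA1nhaa, FOXA1rraa and HNF4A shared 34.7%, 29.5% and 0.498% of FOXA1 peaks. In the central 100 bp, the forkhead core shares were 8.96%, 4%, 5.57%, 8.49% and 0.556% in the order of lists above. Within 2500 bp of a collagen start lay 12.3% of FOXA1, 11.8% of FOXA1nhaa, 12.2% of FOXA1rraa and 25.6% of HNF4A peaks. Settings chosen after seeing the data were the 5′ end in place of every start, which gave 0.498%, 1%, 1.34%, 0.738% and 8.89%, and leaving out COL3A1, COL5A2 and COL11A1, which gave densities of 5.67, 1.03, 4.72 and 2.73 per 100 kb for FOXA1 and its variants. Fewer peaks lower counts and densities by construction, and a wider distance or fewer starts move the start shares. The cause of the moved overlap shares, and of the lower HNF4A start share among better-scoring peaks, was not tested. The 50% overlap, the merging of rows and the assignment by midpoint moved no value by as much. Read depth is unknown, so absent peaks carry no limit of detection.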

Other observations

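The genes COL4A5 and COL4A6, which lie next to each other on the X chromosome and encode the basement membrane chains, were outside the autosomal rule. COL4A6 had 4 FOXA1, 2 FOXA1dbd, 0 FOXA1nhaa, 2 FOXA1rraa and 0 HNF4A peaks in a window of 324 kb, or 1.23 FOXA1 peaks per 100 kb. COL4A5 had 1 FOXA1nhaa peak and no peak of the other 4 lists in a window of 298 kb. Both densities were below the 4.50 FOXA1 peaks per 100 kb of the 4 autosomal basement membrane genes, a comparison without a test. The density at other genes of the X chromosome was not computed, so nothing particular to COL4A5 and COL4A6 follows from it.

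The names of the rows show several sources within a list. The 603 FOXA1 rows at collagens had 603 different names, and 8 were narrower than 50 bp. In other lists a name could stand on more than 1 row with the same score. Such rows occurred in FOXA1dbd at COL24A1 and COL5A2 and in HNF4A at COL1A1, and were counted as separate peaks. Of the 100 FOXA1dbd rows, 91 carried 1 name prefix and 9 another. Of the 449 FOXA1nhaa rows, 436 shared 1 prefix. Of the 271 FOXA1rraa rows, 28 carried a prefix containing the word Nonspecific. What these prefixes stand for is not given in the sources used here.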
